A study of Mus musculus with 8 samples.

Results

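The 9 genes described here encode CD40, an adaptor of its signal, products that CD40 and NF-kB signals induce, and the surface proteins through which a B cell shows itself to T cells: Cd40, Traf1, Ebi3, Cd80, Cd83, Cd86, Icosl, Fas and Lta. They were taken by name, with every probe set of the array that the platform annotation assigns to 1 of them alone. This gave 17 probe sets, of which 16 passed the filter on dim signals, and all 9 genes were among the 11754 genes tested. RNA was measured in germinal centre (GC) B cells, the activated B cells that mutate their antibody genes in lymphoid follicles, from the spleens of 8-week-old GFPMYC/C57BL6 mice. All mice carried the GFPMYC knock-in allele, which makes MYC protein visible as green fluorescence, and spleens were taken 12 days after immunization with sheep red blood cells. Cells with high peanut agglutinin binding and high CD95 were parted by GFP, and 4 arrays each were made of the fraction with GFP (MYC-positive) and of the fraction without (MYC-negative). The sample descriptions tie each MYC-positive array to 1 MYC-negative array, which gave 4 pairs. The labels speak both of a sort for each mouse and of pools, so a pair may be 1 animal or several. The limma p-values weigh the mean difference within pairs against its spread over these 4 pairs. For each gene limma first drew that spread towards a trend with signal level over all genes tested. The SEs, intervals and p-values of limma therefore do not rest on the 4 pairs alone.

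CD40 is a receptor of the TNF receptor family on B cells, and its ligand is carried by helper T cells. When it is bound, TRAF adaptor proteins gather at its tail and start the canonical and the alternative NF-kB pathway, and GC B cells depend on this signal in the light zone, where they compete for T cell help. CD80 and CD86 are the B7 ligands of CD28 and CTLA-4, ICOSL is the ligand of ICOS on follicular helper T cells, and CD83 is a surface marker of light-zone cells. The comparison shows how these genes differed between GC B cells with and without detectable MYC.

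Of the 9 genes, 2 rose in the MYC-positive fraction (Cd40 and Ebi3), 3 fell (Icosl, Lta and Fas), and 4 did not pass the test (Traf1, Cd80, Cd83 and Cd86). Over all genes tested, 11.2% rose and 11.5% fell by the same rule, a limma adjusted p under 0.05 with the pair as a block. The largest differences were that of Ebi3, 4.51-fold higher, and that of Icosl, 2.97-fold lower. The 5 called genes had the same sign in all 4 pairs, and the median log2 difference of the 9 genes was -0.03, beside -0.06 over all genes tested. The arrays are bulk samples, so fewer expressing cells and less RNA per cell cannot be told apart.

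The upstream sequences of the genes with the largest difference in each direction, and of Fas, are shown because 2 of the 3 hold a motif of a factor family that bears on this comparison. They are the 250 bases before a RefSeq transcript start in the build GRCm38.p6, and 6 of the 9 genes matched that table. Capitals mark a match to a motif, searched on both strands, and the matches do not overlap.
Ebi3, chr17:55952373-55952622, plus strand: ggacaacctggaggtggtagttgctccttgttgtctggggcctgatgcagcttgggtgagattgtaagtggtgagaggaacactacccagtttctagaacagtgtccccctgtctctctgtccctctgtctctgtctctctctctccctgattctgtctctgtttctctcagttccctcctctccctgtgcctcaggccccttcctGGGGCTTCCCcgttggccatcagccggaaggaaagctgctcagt
Icosl, chr10:78069118-78069367, plus strand: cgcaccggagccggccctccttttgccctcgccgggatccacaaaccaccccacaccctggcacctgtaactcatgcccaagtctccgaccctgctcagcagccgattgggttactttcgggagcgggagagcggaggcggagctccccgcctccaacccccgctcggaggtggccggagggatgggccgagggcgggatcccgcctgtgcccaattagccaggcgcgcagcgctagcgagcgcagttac
Fas, chr19:34290409-34290658, plus strand: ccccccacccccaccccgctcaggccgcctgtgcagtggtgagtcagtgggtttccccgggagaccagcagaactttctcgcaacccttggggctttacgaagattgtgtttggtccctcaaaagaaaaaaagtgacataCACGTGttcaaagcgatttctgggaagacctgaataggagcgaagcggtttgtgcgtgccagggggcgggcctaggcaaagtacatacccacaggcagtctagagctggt
In Ebi3 the capitals are a match to the NF-kB consensus, 44 to 35 bases before the start, and 3.9% of 32851 such upstream windows hold 1 or more. In Fas they are the E-box CACGTG, the core element that MYC with MAX can bind, 110 to 105 bases before the start, and 6.02% of the windows hold it. The windows of Icosl, Traf1, Cd80 and Lta held no match to either motif. These matches describe letters in a window and are no measure of binding.

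Cd40, the receptor itself, rose. Its brightest probe set (1439221_s_at) had signals of 1575, 1766, 1777 and 1332 in the MYC-negative arrays of pairs 1 to 4. In the MYC-positive arrays it had 2818, 2889, 2543 and 3400. Every MYC-positive array lay above every MYC-negative one, as for 11.1% of all genes tested, and the gap was widest in pair 4. The log2 difference was 0.85 (SE 0.18, n = 4 pairs, limma adjusted p = 0.011), a 1.81-fold rise. The other probe sets of Cd40 were higher as well, by 0.84 (SE 0.20, limma adjusted p = 0.021) and 1.27 (SE 0.33, limma adjusted p = 0.029) in the fit over all probe sets. Without pair 1 or pair 2 the adjusted p of Cd40 was 0.074 and 0.058, with log2 differences of 0.86 and 0.90, and over all alternatives it ran from 0.00088 to 0.074. With each array centred on the median of all probe sets, the log2 difference of Cd40 was 1.30.

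Traf1, an adaptor that joins the CD40 complex and is itself an NF-kB target, did not pass the test. The mean differences of its 2 probe sets had opposite signs. The brighter one (1423602_at) had signals of 1147, 1147, 829 and 570 in the MYC-negative arrays and 1732, 1299, 786 and 1283 in the MYC-positive arrays of pairs 1 to 4. The groups overlapped, and pair 3 went the other way from the rest. Over the pairs the log2 difference was 0.47 (SE 0.23, n = 4 pairs, limma adjusted p = 0.18, 95% interval -0.06 to 0.99). The dimmer probe set (1445452_at) was at -0.69 (SE 0.32, limma adjusted p = 0.16). The difference of the first exceeded that of the second by 1.38, 0.05, 1.35 and 1.83 in pairs 1 to 4. An exact 2-sided sign-flip test of these 4 values gave p = 0.125, the smallest that 4 pairs can give. Traf1 was at -0.11 when its probe sets were averaged, and at 0.91 with limma adjusted p = 0.016 after centring on the median of all probe sets.

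**Figure D1:**
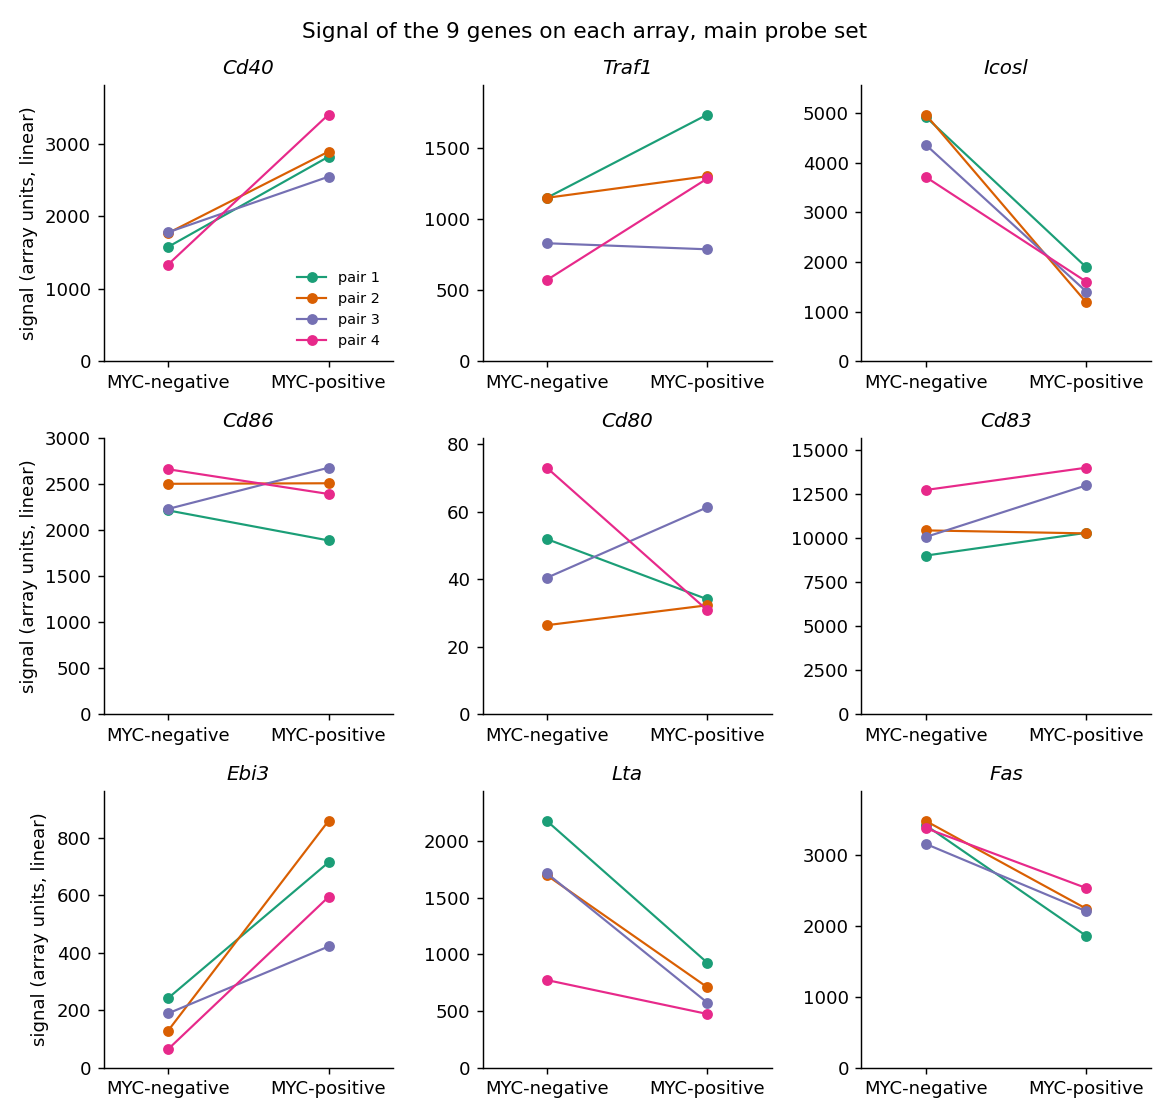
Signal of the main probe set of each of the 9 genes (linear scale, axes from 0) on the MYC-negative and MYC-positive arrays, with a line and colour for each of the 4 pairs. The lines of Cd40 and Ebi3 all rise, those of Icosl, Lta and Fas all fall, and those of Traf1, Cd80, Cd83 and Cd86 run in both directions.

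Among the ligands for T cells, Icosl fell, Cd86 gave values that depended on the probe set, and Cd80 was dim. Icosl, the ICOS ligand gene, had signals of 4925, 4969, 4363 and 3713 in the MYC-negative arrays of pairs 1 to 4. In the MYC-positive arrays it had 1894, 1187, 1405 and 1603. The groups were far apart: the highest MYC-positive array stood well under the lowest MYC-negative one, and 10.9% of all genes tested likewise had every MYC-positive array below every MYC-negative one. Its mean log2 difference was -1.57 (SE 0.17, n = 4 pairs, limma adjusted p = 0.00097, 95% interval -1.97 to -1.18). It was between -2.07 and -1.21 in the single pairs, and it passed the test in all 14 alternatives, with values from -1.69 to -1.13. A dim probe set of Icosl (1426087_at) was at -0.95 (SE 0.47, limma adjusted p = 0.18), with signals between 17.3 and 64.8.

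Cd86 encodes a B7 ligand of CD28. Its brighter probe set (1449858_at) had signals of 2219, 2507, 2234 and 2666 in the MYC-negative arrays and 1892, 2513, 2682 and 2397 in the MYC-positive arrays of pairs 1 to 4. These groups overlapped, with 2 pairs up and 2 down. This gave a log2 difference of -0.03 (SE 0.15, n = 4 pairs, limma adjusted p = 0.92, 95% interval -0.38 to 0.32). The other probe set (1420404_at), listed under the same RefSeq accession, had 1850, 1832, 2134 and 1440 in the MYC-negative arrays and 1310, 1431, 1350 and 708 in the MYC-positive ones. There all MYC-positive arrays were below all MYC-negative ones, and the log2 difference was -0.64 (SE 0.18, limma adjusted p = 0.036 over all probe sets). The differences of the 2 probe sets were apart by 0.27, 0.36, 0.92 and 0.87 in pairs 1 to 4, the same way each time (exact 2-sided sign-flip test, p = 0.125, again the smallest possible).

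Cd80, the other B7 ligand, was dim on every probe set. The brightest (1432826_a_at) had signals of 52.0, 26.5, 40.5 and 73.1 in the MYC-negative arrays and 34.1, 32.4, 61.4 and 30.9 in the MYC-positive arrays of pairs 1 to 4. It was above the array's median signal on 4 of 8 arrays, the groups overlapped, and 2 pairs rose while 2 fell. The fitted log2 difference was -0.24 (SE 0.45, n = 4 pairs, limma adjusted p = 0.75), and its 95% interval of -1.27 to 0.79 leaves room for a difference of either sign. The other tested probe sets were at 0.09 (SE 0.45) and -0.33 (SE 0.53), and the one under the filter had signals between 1.62 and 40.1.

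Cd83, the light-zone surface marker, did not pass the test. It had signals of 9000, 10427, 10051 and 12714 in the MYC-negative arrays and 10288, 10256, 12977 and 13976 in the MYC-positive arrays of pairs 1 to 4. The groups overlapped, and 3 of 4 pairs rose. On the log2 scale the difference was 0.17 (SE 0.12, n = 4 pairs, limma adjusted p = 0.34, 95% interval -0.09 to 0.43). It passed the test only after centring on the median of all probe sets (0.61, limma adjusted p = 0.026) and was at -0.01 after quantile normalization.

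**Figure D2:**
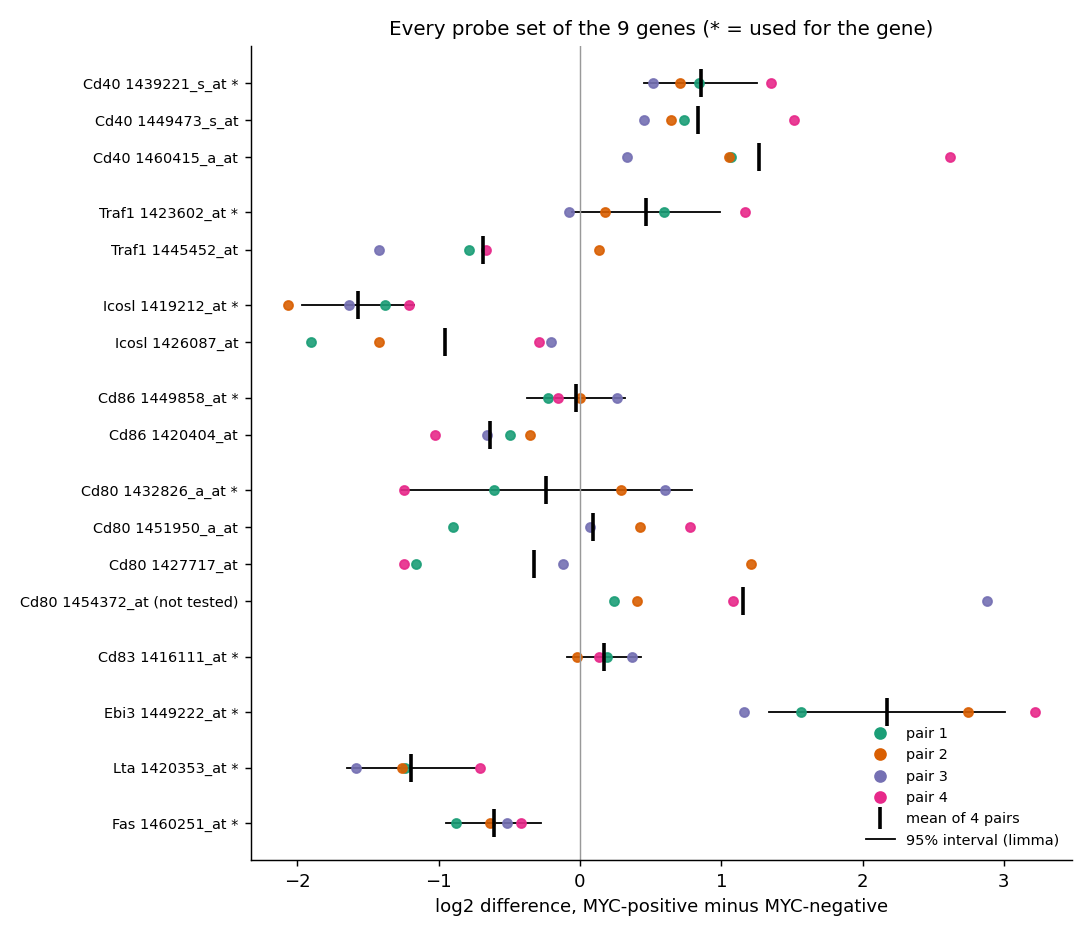
Log2 difference (MYC-positive minus MYC-negative) of each of the 17 probe sets in each pair (coloured points), with the mean of the 4 pairs (black mark) and limma's 95% interval for the probe set used for the gene (starred). The 3 Cd40 probe sets lie above 0 in every pair and both of Icosl lie below it. For Traf1 the means of the probe sets lie to opposite sides, each probe set has points on both sides of 0, and neither passed the test.

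The secreted products went in opposite directions. Ebi3 encodes a cytokine subunit that pairs with partner subunits to form IL-27 and IL-35. It had signals of 241, 128, 189 and 63.7 in the MYC-negative arrays and 714, 859, 422 and 594 in the MYC-positive arrays of pairs 1 to 4. All MYC-positive arrays were above all MYC-negative ones, and the dimmest value, in the MYC-negative array of pair 4, went with the widest gap. The log2 difference was 2.17 (SE 0.37, n = 4 pairs, limma adjusted p = 0.0048), with 1.57, 2.75, 1.16 and 3.22 in pairs 1 to 4. It passed the test in all 14 alternatives, with values from 1.82 to 2.61.

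Lta encodes lymphotoxin alpha, a TNF family cytokine that B cells use to maintain follicle structure. Its signals were 2177, 1697, 1715 and 773 in the MYC-negative arrays and 925, 709, 573 and 473 in the MYC-positive arrays of pairs 1 to 4. Each pair fell, yet the groups overlapped, because the MYC-negative array of pair 4 lay under the MYC-positive array of pair 1. Over the pairs the log2 difference was -1.20 (SE 0.20, n = 4 pairs, limma adjusted p = 0.0047, 95% interval -1.65 to -0.74). It passed the test in all 14 alternatives, with -0.76 after centring on the median of all probe sets.

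Fas, the death receptor gene, fell within a gate set on its own protein. CD95 is the product of Fas, and cells with little of it at the surface were sorted into neither fraction. Its signals were 3420, 3481, 3156 and 3379 in the MYC-negative arrays and 1858, 2242, 2206 and 2533 in the MYC-positive arrays of pairs 1 to 4. The MYC-negative arrays were close together and all above the MYC-positive ones. Its mean log2 difference was -0.61 (SE 0.15, n = 4 pairs, limma adjusted p = 0.019), a 1.53-fold fall. The call ended without pair 1 (-0.52, limma adjusted p = 0.13), without pair 2 (-0.60, limma adjusted p = 0.11) and after centring on the median of all probe sets (-0.17, limma adjusted p = 0.53), and over all alternatives the adjusted p ran from 0.0027 to 0.53.

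Across probe sets, 8 of the 16 tested passed, 4 higher (3 of Cd40 and that of Ebi3) and 4 lower (1 each of Icosl, Cd86, Lta and Fas). Over all 22024 probe sets in that fit, 9.03% were higher and 12% lower. Without pair 1 the count was 2 of 16, and without pair 2 it was 3. Calls were fewer over all genes as well, with 403 higher and 352 lower without pair 1 and 455 and 425 without pair 2, against 1319 and 1352 with all pairs. The MYC-negative array of pair 4 held the lowest value of its group for 5 of the 9 genes. Pair 4 had the widest gap of the 4 pairs for Cd40, Traf1 and Ebi3 and the narrowest for Icosl, Lta and Fas.

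Over the 8 arrays, the genes whose log2 signals followed each of the 9 most closely are given as a description only, since the arrays fall into the same 2 groups for many genes. For Cd40 they were Polr2i and Ppm1g (Pearson r = 0.99 for both), which also rose. For Ebi3 they were Fam167a (0.99) and Champ1 (0.98). For Icosl they were Eif2ak3, the gene of the stress kinase PERK, and Pde4b, a cyclic AMP phosphodiesterase gene (0.99 for both), which fell by 1.57 and 1.08 on the log2 scale. For Fas they were Rcor3 (0.99) and Il16 (0.98), and for Lta C2cd5 and the DNA polymerase gene Rev1 (0.99 for both), all of which fell. For Cd83 they were Zfas1 and the ribosomal protein gene Rpl11 (0.98 for both), for Traf1 Borcs5 and Them6 (0.99 for both), for Cd86 Dna2 (0.96) and Klf17 (0.94), and for Cd80 Sh3bp4 and Ap3m1 (0.93 for both).

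Other genes around CD40 and costimulation were counted in 7 lists with 65 genes tested, of which 13 rose and 4 fell. Over all genes tested, 11.2% rose and 11.5% fell. The lists were chosen with earlier results of these data known, so their counts are a description only. Among 15 genes of proteins that carry the CD40 signal, 2 rose and 1 fell, with a median of -0.05. Nfkb2, the precursor of the alternative pathway's p52, was 1.04 higher (SE 0.27, limma adjusted p = 0.024), and Birc3, a ubiquitin ligase bound to TRAF proteins, 0.60 higher (SE 0.15, limma adjusted p = 0.023). Traf5, another TRAF adaptor, was at -1.30 (SE 0.28, limma adjusted p = 0.013). The calls of all 3 ended without pair 1 and without pair 2, with adjusted p from 0.083 to 0.15, and that of Birc3 also ended without pair 3 (0.066) and when its probe sets were averaged, at -0.02. Without the intensity trend the adjusted p was 0.078 for Birc3 and 0.052 for Traf5. After centring on the median of all probe sets Birc3 was at 1.04 and Traf5 at -0.86, both called. Averaging its probe sets put Nfkb2 at 0.83 with limma adjusted p = 0.14.

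Of 19 genes that CD40 or NF-kB signals are known to induce, 8 rose and 0 fell, with a median of 0.33. At an unadjusted p under 0.05 in limma the counts were 10 and 1. By the adjusted p, 11.2% of all 11754 genes tested rose and 11.5% fell. At an unadjusted p under 0.05 in limma, 1996 of them were higher and 2257 lower. This list too was chosen with earlier results known, so its count is no test of CD40 signalling. Ier3, an early response gene, was 3.50 higher (SE 0.74, limma adjusted p = 0.012) from a mean signal of 12.0, under the filter level of 18.7, in the MYC-negative arrays, so the size of its difference is poorly determined. It was 6.69 in pair 2 alone, 2.44 without pair 2 and 2.52 with signals floored at 16, and its adjusted p was 0.066 without pair 1. The other 18 genes of the list were above the filter level in both groups, and 7 of them rose. Batf, a transcription factor gene of class switching, was 2.97 higher (SE 0.34, limma adjusted p = 0.0011). Irf4, a transcription factor gene needed for plasma cell formation, differed by 1.57 (SE 0.14, limma adjusted p = 0.00054). The other 5 were between 0.43 and 0.94 higher.

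**Figure D3:**
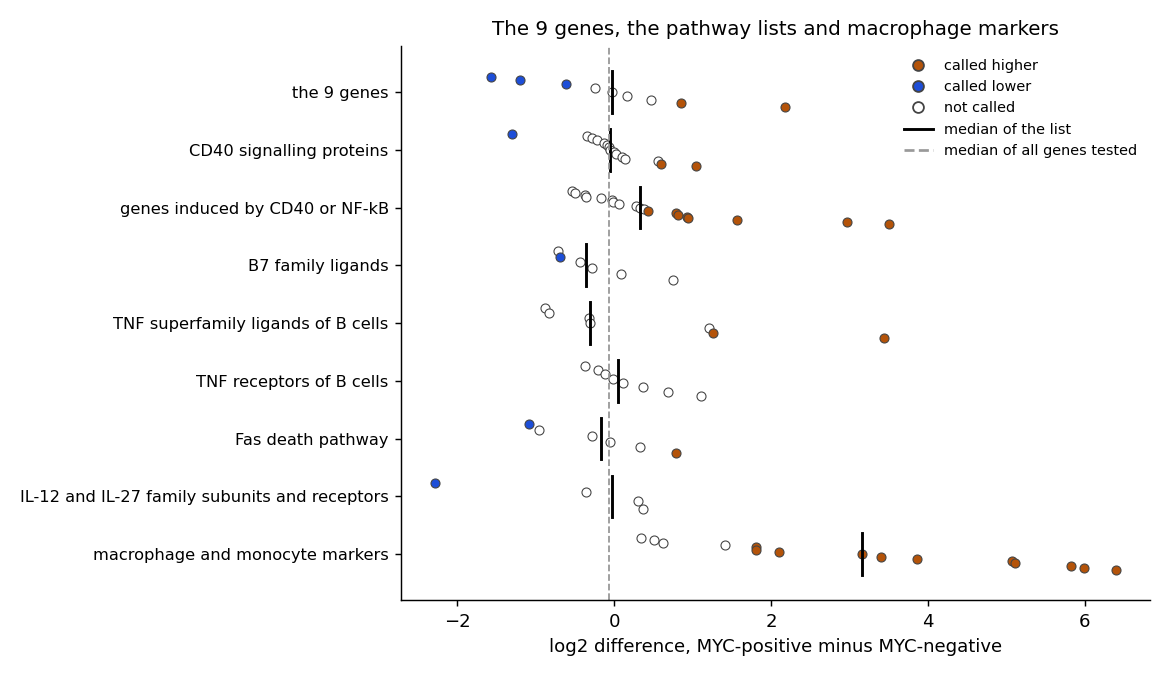
Log2 difference (MYC-positive minus MYC-negative) of each gene tested, for the 9 genes, the 7 pathway lists and a list of macrophage markers; filled points passed limma's test, the black bar is the list's median and the dashed line the median of all genes tested (-0.06). The list of induced genes reaches from below 0 to 3.50, the value of Ier3, and of the 15 macrophage markers 7 had a MYC-negative mean under the filter level, so the bar of that list is no measure of its size.

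Ligands of the TNF family other than Lta included 2 that rose of 7 tested and 0 that fell (3 and 2 at an unadjusted p under 0.05 in limma), with a median of -0.31. By the adjusted p, 11.2% of all 11754 genes tested rose and 11.5% fell. At the unadjusted p, 1996 of them were higher and 2257 lower. Cd70, the ligand of CD27, was 3.44 higher (SE 0.56, limma adjusted p = 0.0044), from a mean signal of 26.2 to 285. Tnfsf9, the 4-1BB ligand, was 1.26 higher (SE 0.24, limma adjusted p = 0.0076), with adjusted p = 0.066 without pair 2. Of 8 TNF receptor genes 0 rose and 0 fell, also at an unadjusted p under 0.05 in limma. Among 6 genes of other B7 ligands and of the pair BTLA and HVEM, 0 rose and 1 fell (0 and 2 at an unadjusted p under 0.05). That was Btla, an inhibitory receptor, at -0.68 (SE 0.14, limma adjusted p = 0.0090). Its call ended without pair 1 (0.069), without pair 2 (0.061) and without the intensity trend (0.062). It also ended after centring on the median of the genes tested (0.062) and on that of all probe sets, where Btla was at -0.24 (0.34).

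Around FAS-induced death, 1 of 6 listed genes rose and 1 fell. The shares over all genes tested were 11.2% and 11.5%. Bid, which links death receptors to mitochondria, was 0.79 higher (SE 0.17, limma adjusted p = 0.013), with adjusted p = 0.098 without pair 1 and 0.055 without pair 2. Its call also ended without the intensity trend (0.066) and when its probe sets were averaged, at 0.55 (0.12), and it was at 1.23 after centring on the median of all probe sets. Fcmr, the IgM receptor gene once described as an inhibitor of FAS-induced death, was at -1.08 (SE 0.33, limma adjusted p = 0.047), and 8 of its 14 alternatives ended the call, with adjusted p up to 0.14. Without pair 3 it was at -0.61, and after centring on the median of all probe sets at -0.64. Among 4 genes of the IL-12 and IL-27 family other than Ebi3, 0 rose (also at an unadjusted p under 0.05 in limma) and 1 fell. That was Il12a, which encodes the subunit that joins EBI3 in IL-35, at -2.28 (SE 0.59, limma adjusted p = 0.025), from a mean signal of 109 to 22.6. Its adjusted p was 0.097 without pair 1, 0.080 without pair 2, 0.083 without the pair block, and 0.065 without the intensity trend. The size rested on pair 3, at -4.65 alone: it was -1.49 without that pair and -1.69 with signals floored at 16.

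Some values of the whole series bear on these results. Myc checked the labels, with signals of 33.3 to 156 in MYC-negative and 361 to 932 in MYC-positive arrays, and the GC marker gene Bcl6 had 7712 or more on every array. Macrophages express several of the 9 genes, and their markers were higher in the MYC-positive fraction: 11 of 15 tested rose and 0 fell (12 and 0 at an unadjusted p under 0.05 in limma). Of the 11, 6 had a MYC-negative mean under the filter level of 18.7 and entered the test through the MYC-positive arrays. Of the 8 markers above that level in both groups, 5 rose. By the adjusted p, 11.2% of all 11754 genes tested rose and 11.5% fell. At an unadjusted p under 0.05 in limma, 1996 were higher and 2257 lower. The summed signal of the macrophage list was 883 to 1804 in MYC-negative and 2320 to 12815 in MYC-positive arrays. Lyz2 ran from 25.9 to 333 in MYC-negative and from 408 to 1780 in MYC-positive arrays, and Csf1r from 1.27 to 76.0 and from 74.9 to 1915. The part of these cells in the differences of the 9 genes was not tested. Dendritic cell markers had 1 called of 6, with a median of -0.29. That was Fscn1, from a mean signal of 4619 to 10446, which made up most of the summed signal of that list, 4436 to 7466 in MYC-negative and 9495 to 14506 in MYC-positive arrays. Of the other 5 none was called: Ccr7 was at 0.99, and Zbtb46 (-1.13), Itgae (-0.44), Itgax (-0.30) and Flt3 (-0.29) were below 0. Itgax had signals between 3.90 and 78.2 on all arrays. T cell markers had 1 lower of 5, with a summed signal of 674 to 898 and 199 to 815. Cd3e and Cd40lg did not pass the filter, which is set on the mean over all arrays. In single MYC-negative arrays they reached signals of 25.6 and 45.3.

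The direction of small differences depended on how arrays were scaled. As deposited, 1319 genes rose and 1352 fell. The median signal of all probe sets was lower in every MYC-positive array (28.2 to 39.7) than in any MYC-negative array (41.4 to 55.8). After centring on that median, 3204 rose and 546 fell, and the median difference of all genes moved up by 0.44. Centring on the genes tested, chosen after the data were seen, moved it by 0.05, and quantile normalization by 0.15. Cd40, Ebi3, Icosl and Lta passed the test in the same direction under each of these scalings. Fas had adjusted p = 0.058 after centring on the genes tested.

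**Figure D4:**
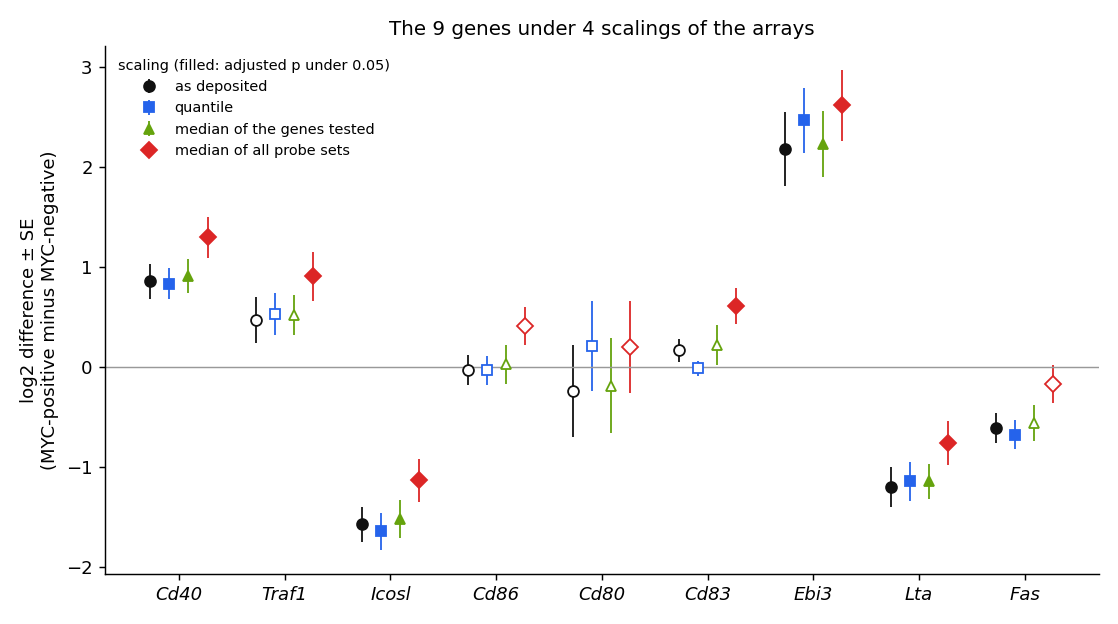
Log2 difference with its SE for the 9 genes under the deposited scaling, quantile normalization, centring on the median of the genes tested and centring on the median of all probe sets; filled symbols passed limma's test. Cd40 and Ebi3 stay above 0 and Icosl and Lta below it under all 4 scalings, while Fas moves from -0.61 to -0.17.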

How the data were processed

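RNA of sorted GC B cells, 5 to 20 ng a sample, was amplified, labelled with biotin and put on 8 Affymetrix arrays, per the labels' protocols. The table deposited by the authors holds linear signal intensity per probe set, and the submitters' processing notes name MAS5. Its settings and a genome build were not stated in these sources. The arrays had trimmed means of 497 to 498, so they had been scaled to a common level. No detection calls were used, and 4 arrays per group limit the precision.

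Genes came from the platform annotation given with the series, with symbols checked against RefSeq by gene identifier (0 changed). Of 45056 probe sets, 19 were controls, 34945 had 1 gene, 932 several and 9160 were unnamed here; only those with 1 gene were tested. Values under 1 were raised to 1 before the log2 step. Probe sets with a mean log2 signal above the 40th percentile (a signal of 18.7) were kept, and the one with the highest mean stood for its gene. limma 3.58.1 in R 4.3.3 fitted the fraction with the pair as a block, with 3 residual degrees of freedom. Variances were moderated by empirical Bayes with an intensity trend. The p-values were adjusted by Benjamini-Hochberg over 11754 genes, or over 22024 probe sets where stated. The procedure was tested on simulated data. All tests were 2-sided.

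The pairs come from the sample descriptions; deviations of paired arrays from their group means correlated at 0.26, 0.17, 0.088 and 0.12. The titles' replicate numbers were not used to pair arrays.

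The 9 genes and all lists were chosen with earlier results of these data known. Named outside the 9 were the called genes of each pathway list, up to 3 a direction, the 2 closest genes by correlation and a few cell markers; Fscn1 was named after its value was seen. Upstream sequences are RefSeq's. Alternatives were no pair block, 3 other scalings, 2 other filters, a floor of 16, the mean over probe sets, every probe set as a feature, no trend, and leaving out each pair.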

Additional observations from a re-analysis of the deposited data

Results flagged for a closer look

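Within a group of 4 arrays, a value far from the other 3 was looked for by Dixon's ratio, the gap to the nearest value over the range, above its 95% critical value. Of 34 groups of log2 signals examined, 4 exceeded it, and chance gives about 1 in 20.

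The Cd40 probe set 1460415_a_at was low in the MYC-negative array of pair 4, at a signal of 276 against 668 to 746 in the others (ratio 0.888). The Cd86 probe set 1420404_at was low in the MYC-positive array of pair 4, at 708 against 1310 to 1431 (ratio 0.875). Both are probe sets that were not used for their gene.

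The Cd80 probe set 1432826_a_at was high in the MYC-positive array of pair 3, at 61.4 against 30.9 to 34.1 (ratio 0.855). The Cd80 probe set 1454372_at was low in the MYC-negative array of pair 3, at 1.62 against 12.8 to 18.9 (ratio 0.840), all under or near the filter level of 18.7.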

How the results depend on the processing

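Ebi3, Icosl and Lta kept their direction and passed the test in all 14 alternatives. Leaving out 1 pair each time, the number of genes of the 9 that rose was 1 to 2, the number of their probe sets called 2 to 8, and the number of pathway genes called 7 to 24, while over all genes 403 to 1742 rose and 352 to 2036 fell. Fitted without the intensity trend, 1 of the 9 rose, since Cd40 had adjusted p = 0.052, 2 fell, since Fas had 0.075, and 11 pathway genes were called in place of 17. After centring on the median of all probe sets, 4 of the 9 rose, with Traf1 and Cd83 joining Cd40 and Ebi3. The fit without the replicate block, which leaves the pairs out, called 2 of the 9 higher and 3 lower as before, and ended the calls of Fcmr and Il12a. Cd80, Cd86 and Cd83, not called as deposited, changed sign in some alternatives: Cd80 was at 0.21 after quantile normalization, 0.20 after centring on the median of all probe sets, and -0.52 to 0.095 with 1 pair left out. Cd86 was at 0.41 and 0.025 after the 2 centrings, and -0.13 to 0.038 with 1 pair left out, above 0 without pair 1 and without pair 4 (0.013). Cd83 was at -0.014 after quantile normalization. With the mean over probe sets Traf1, at 0.47 and not called, was at -0.11, and Birc3, called at 0.60, was at -0.022. With the filter at the 60th percentile Cd80 had no probe set left, and its low signal limits what these arrays can show. The cause of these changes was not tested.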

Other observations

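Other marker lists gave values for the same arrays. Among 6 plasma cell markers 2 rose and 0 fell (2 and 1 at an unadjusted p under 0.05 in limma): Irf4 and Sdc1, the syndecan gene that marks plasma cells, which was 2.02 higher (SE 0.38, limma adjusted p = 0.0073, and 0.050 without pair 2). The complement receptor gene Cr2, found on B cells and on follicular dendritic cells, was at -1.30 (SE 0.16, limma adjusted p = 0.0015), with signals of 1966 to 2610 in MYC-negative and 732 to 1220 in MYC-positive arrays, and was at -0.86 after centring on the median of all probe sets. Of 8 GC B cell markers 2 fell, 1 of which was Fas, described above. Of 7 general B cell markers 3 fell. At an unadjusted p under 0.05 in limma 5 of each list were lower, and 0 of either list were higher, also by the adjusted p. By the adjusted p, 11.2% of all 11754 genes tested rose and 11.5% fell. At the unadjusted p, 1996 of them were higher and 2257 lower.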
